A study of Mus musculus with 15 samples.

Results

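Ribosomes that carry Rps27l were pulled down from mouse embryonic stem cells (mESCs), and the mRNA fragments inside them were compared with those of all ribosomes of the same cells. The comparison rests on 6 of the 15 libraries of the series. They are the immunoprecipitated ribosome-protected fragments (IP RPFs) and the total RPFs of the 3 *Rps27l-FLAG* clones, 4a2, 4a3 and 4b7, taken as replicates 1, 2 and 3 from the sample labels. These cells descend from E14Tg2a.4 mESCs and were edited with CRISPR so that both copies of *Rps27l* end in a FLAG epitope tag before the stop codon. Each replicate is 1 independently selected clone, and barcoded samples of a replicate number were pooled for library preparation, so a clone and its pool cannot be told apart. The other tagged line, *Rps27-FLAG*, carries the same tag on *Rps27* in 3 clones of its own. It is used only to show where the *Rps27l-FLAG* pull-down differs from it or matches it. All cells received cycloheximide, which halts elongating ribosomes. Lysates were digested with RNase, ribosomes were pelleted through sucrose (total RPFs), and the pellet was precleared with IgG beads and incubated with anti-FLAG beads (IP RPFs). A pull-down from untagged cells was not analysed here.

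Rps27l and Rps27 (also called eS27L and eS27) are paralogous proteins of the small ribosomal subunit, and a ribosome has a place for one of them. Ribosome profiling sequences the stretch of mRNA that a ribosome shields from RNase, so that the counts of a transcript follow how many ribosomes were translating it. An IP over total ratio then says how a transcript's share of footprints among tagged ribosomes compares with its share among all ribosomes, and only relative to other transcripts.

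The coding sequences (CDSs) of both paralogs are shown because they define which ribosomes were captured, with capitals for the bases that differ between them. They were read from GENCODE M21 transcripts on GRCm38. The CDS of *Rps27l* spans 4 coding exons on the plus strand at chr9:66946175-66949354, and that of *Rps27* 4 coding exons on the minus strand at chr3:90212728-90213615.
Rps27l: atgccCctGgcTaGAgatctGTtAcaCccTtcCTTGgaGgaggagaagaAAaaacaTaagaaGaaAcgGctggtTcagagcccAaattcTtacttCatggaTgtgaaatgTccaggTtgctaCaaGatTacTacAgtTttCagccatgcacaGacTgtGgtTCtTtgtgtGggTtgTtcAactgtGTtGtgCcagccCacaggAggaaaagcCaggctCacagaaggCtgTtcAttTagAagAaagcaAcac
Rps27: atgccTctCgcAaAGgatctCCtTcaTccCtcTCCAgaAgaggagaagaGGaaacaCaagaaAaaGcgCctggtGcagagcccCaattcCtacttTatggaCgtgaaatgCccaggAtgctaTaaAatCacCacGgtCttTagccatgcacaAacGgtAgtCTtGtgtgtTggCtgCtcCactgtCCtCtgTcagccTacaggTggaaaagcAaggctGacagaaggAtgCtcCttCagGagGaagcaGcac
Over 252 bases they differ at 60, and over 84 residues the proteins differ at 3, at residues 5, 12 and 17 from the first methionine. *Rps27* itself had 0 counts in all 15 libraries. Its CDS differs by 0 bases from that of *Rps27rt*, which also had 0 counts, and only unique alignments had been kept. *Rps27l* was measured at 149, 168 and 167 CPM (normalized counts scaled to a common library size) in the IP RPFs and at 133, 142 and 149 in the total RPFs of replicates 1 to 3. Its ratio was 0.19 on the log2 scale, and -0.00 ± 0.04 (SE, n = 3) relative to transcripts with a CDS of like length.

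The libraries held 5584472, 4498615 and 3972152 counts in the IP RPFs and 7598260, 8064166 and 6378854 in the total RPFs. The mESC label was checked against 12 stem cell markers, such as *Pou5f1*, *Sox2* and *Nanog*. All 12 were above 10 CPM in each of these libraries, from 54.4 to 1133 CPM. Of 15 markers of endoderm, mesoderm, neural cells, trophoblast and fibroblasts, 6 stayed under 2 CPM everywhere and the highest value was 28.3 CPM. Their part in the results was not tested.

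Fragments from mitochondrial ribosomes, which are built from a separate set of proteins and hold neither paralog, were the most depleted. The 13 mitochondrially encoded transcripts took 0.0462%, 0.0842% and 0.0509% of the IP RPF counts in replicates 1 to 3, against 0.563%, 0.636% and 0.462% of the total RPF counts. Their share was thus 12.2-, 7.55- and 9.09-fold lower in the IP RPFs, and 10.8% ± 2.52 (SD, n = 3) of it remained. Every one of the 13 transcripts was lower in every clone. The fitted log2 fold changes ran from -2.81 for *mt-Co1*, a catalytic subunit of cytochrome oxidase, to -4.05 for *mt-Nd4l*, a complex I subunit. In the *Rps27-FLAG* pull-down 6.02% ± 0.652 (SD, n = 3) of the mitochondrial share remained, and the 3 values (5.86%, 6.74% and 5.47%) lay below the 3 *Rps27l-FLAG* values (8.21%, 13.25% and 11.01%). This difference was not tested. The counting error of these shares was small beside the spread of the clones (95% Wilson intervals of 0.0445 to 0.0480%, 0.0816 to 0.0869% and 0.0487 to 0.0532% for the IP RPFs of replicates 1 to 3), and it covers counting error only. These transcripts were left out of the fits that follow.

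**Figure D1:**
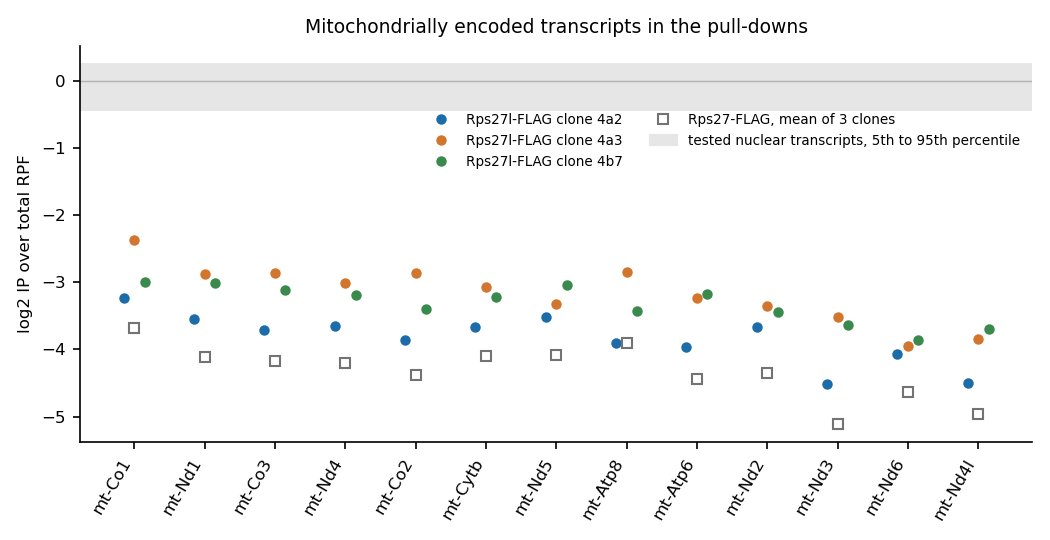
Log2 ratio of IP over total RPFs (vertical axis) for the 13 mitochondrially encoded transcripts (horizontal axis). Filled points are the 3 *Rps27l-FLAG* clones, open squares the mean of the 3 *Rps27-FLAG* clones, and the grey band spans the 5th to 95th percentile of tested nuclear transcripts (-0.44 to 0.25). All points lie far below the band, and clone 4a2 is the lowest of the 3 *Rps27l-FLAG* clones for each of the 13 transcripts.

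Among nuclear transcripts, those with a short CDS were higher in the IP RPFs and those with a long CDS lower. A floor of 2 CPM, to be passed by 14 libraries or more, left 10085 transcripts, which were compared by clone with edgeR. In the IP RPFs, at an adjusted p under 0.05, 1209 (12%) had a higher share and 1919 (19%) a lower one. The split between directions depended on the scaling: DESeq2's size factors gave 1623 higher and 1555 lower. Without the clone as a block, as in the design of the study, 313 passed. The median CDS was 864 nt for the higher and 2706 nt for the lower transcripts, against 1440 nt for all. In the tenth of transcripts with the shortest CDS (75 to 555 nt) the median log2 ratio was 0.15, with 330 higher and 3 lower of 1012. In the tenth with the longest (3642 to 100401 nt) it was -0.26, with 18 higher and 591 lower of 1008. All 3 clones gave this slope, with 0.15, 0.17 and 0.16 at the short end and -0.25, -0.27 and -0.26 at the long end. The *Rps27-FLAG* pull-down had 0.19 and -0.32 there.

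**Figure D2:**
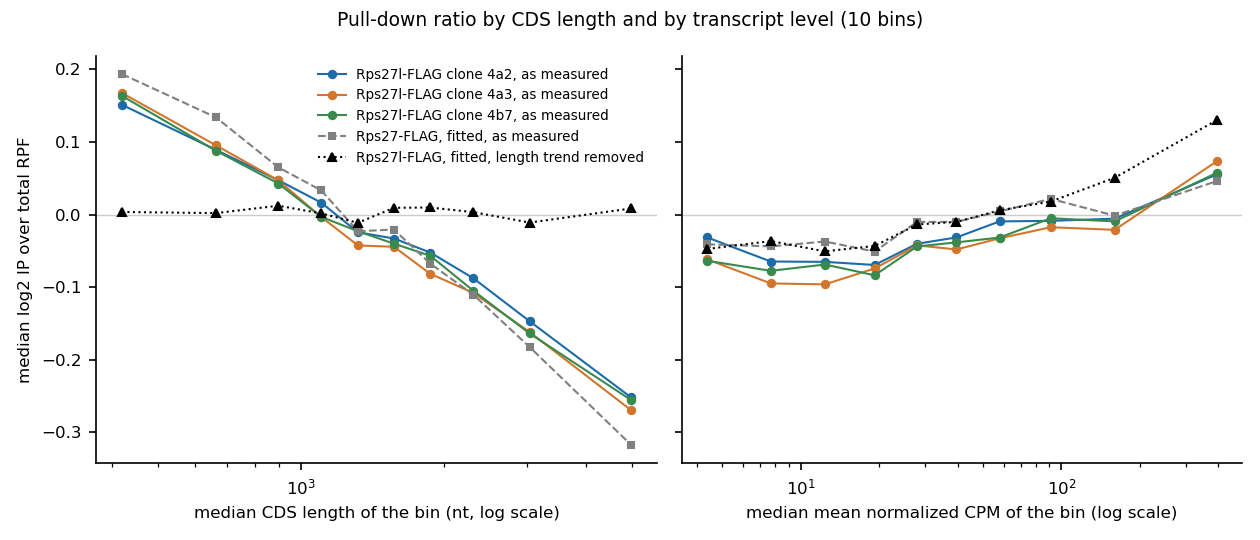
Median log2 ratio of IP over total RPFs (vertical axis) in 10 bins of CDS length in nt (left) and of mean normalized CPM (right), both on log axes. Lines are the 3 *Rps27l-FLAG* clones and the fitted *Rps27-FLAG* values as measured, and the fitted *Rps27l-FLAG* values with the length trend removed, which lie near 0 in each length bin and rise to 0.13 in the bin of the highest CPM.

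To describe classes beyond this slope, the trend with CDS length was estimated in each library by loess and entered as an offset, so that a transcript is set against others of like CDS length. All log2 values from here on are of this kind unless said otherwise. Of 10082 transcripts with a CDS length, 1383 (13.7%) were then higher and 895 (8.88%) lower. The changes were small: the median absolute log2 fold change of the called transcripts was 0.20, and 741 (7.35%) exceeded 0.25. Of the called transcripts 97.4% had a ratio of the same sign in all 3 clones, against 49.1% of all, which the test itself favours. The CPM of the IP and total RPFs did not overlap for 2353 of 10085 transcripts (23.3%). Without the clone as a block 6 transcripts passed, among them *Tmod3* and *Cenpe*, and 1136 at an unadjusted p under 0.05. A second trend remained, since the ratio rose with the level of the transcript. The median was -0.05 in the tenth with the lowest CPM and 0.13 in the tenth with the highest, where 665 of 1009 were higher and 103 lower. With a level trend also removed, an alternative chosen after seeing the data, 963 (9.55%) were higher and 963 (9.55%) lower. CPM here are not per length, and this trend uses the same 6 libraries as the test. Class counts are given on the length scale and then with the level trend also removed. Most calls on the length scale were not particular to this pull-down. Of the higher transcripts 75.1% were also called higher in the *Rps27-FLAG* pull-down, and of the lower ones 75.1% were called lower there. Over all 10082 transcripts, 1764 were called higher and 1376 lower in the *Rps27-FLAG* pull-down.

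Among called transcripts with a mean of at least 10 CPM and ratios of 1 sign in all 3 clones, the highest was *Tmod3*, which encodes a cap of actin filament pointed ends. It had 265, 250 and 211 CPM in the IP RPFs and 100, 91.6 and 84.7 CPM in the total RPFs, and the 2 groups lay far apart. Its log2 fold change was 1.39 ± 0.04 (SE, adjusted p = 1e-50, edgeR, n = 3). Below that level *Col11a1*, a fibrillar collagen named after its values were seen, stood at 1.43 ± 0.20 on 9.91, 4.72 and 10.7 CPM in the IP RPFs and 3.64, 3.21 and 4.43 CPM in the total RPFs. The *Tmod3* protein holds the motif DYKxxD, the spacing of acidic and basic residues that the FLAG epitope has, at residue 11 of 352. The stretch that encodes it is shown with those of 4 other proteins that hold the motif, chosen after their values were seen, to set side by side members on either side of 0. Capitals mark the codons of the motif, all positions are GRCm38, and each lies in a coding exon (for *Cap2* across 2 coding exons with an intron between them).
Tmod3, minus strand, chr9:75532489-75532536: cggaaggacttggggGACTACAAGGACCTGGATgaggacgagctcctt
Cap2, plus strand, chr13:46610121-46615268: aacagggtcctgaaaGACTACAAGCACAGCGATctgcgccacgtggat
Rest, plus strand, chr5:77280804-77280851: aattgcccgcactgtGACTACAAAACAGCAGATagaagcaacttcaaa
Scyl2, minus strand, chr10:89666729-89666776: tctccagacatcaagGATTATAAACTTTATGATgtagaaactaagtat
Myo5a, plus strand, chr9:75116231-75116278: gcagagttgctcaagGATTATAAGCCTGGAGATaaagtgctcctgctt
The motif was found in 36 proteins of the table, of which 19 were tested: 5 were higher, 5 lower and their median was -0.03. Most of the stretches shown are from higher transcripts, so they do not represent this even split. Each direction held 26.3% of the 19, against 13.7% higher and 8.88% lower of all transcripts. Their median CDS was 2790 nt and their median level 81.9 CPM, against 1440 nt and 33.1 CPM for all. *Cap2*, a regulator of actin filaments, was higher at 0.64, *Rest*, a repressor of neural genes, at 0.40 and *Scyl2*, a vesicle coat protein, at 0.34. *Myo5a*, a motor of vesicle transport, was lower at -0.49. *Cap2* rested on low counts (13.6, 10.6 and 5.11 CPM in the IP RPFs, 7.29, 8.14 and 4.11 in the total RPFs) and did not pass without replicate 1. The wider motif YKxxD was in 451 tested proteins, with 88 (19.5%) higher, 53 (11.8%) lower and a median of 0.00. These too had a longer CDS (median 2274 nt) and a higher level (38.8 CPM) than all transcripts. The part of length and level in these counts was not tested.

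**Figure D3:**
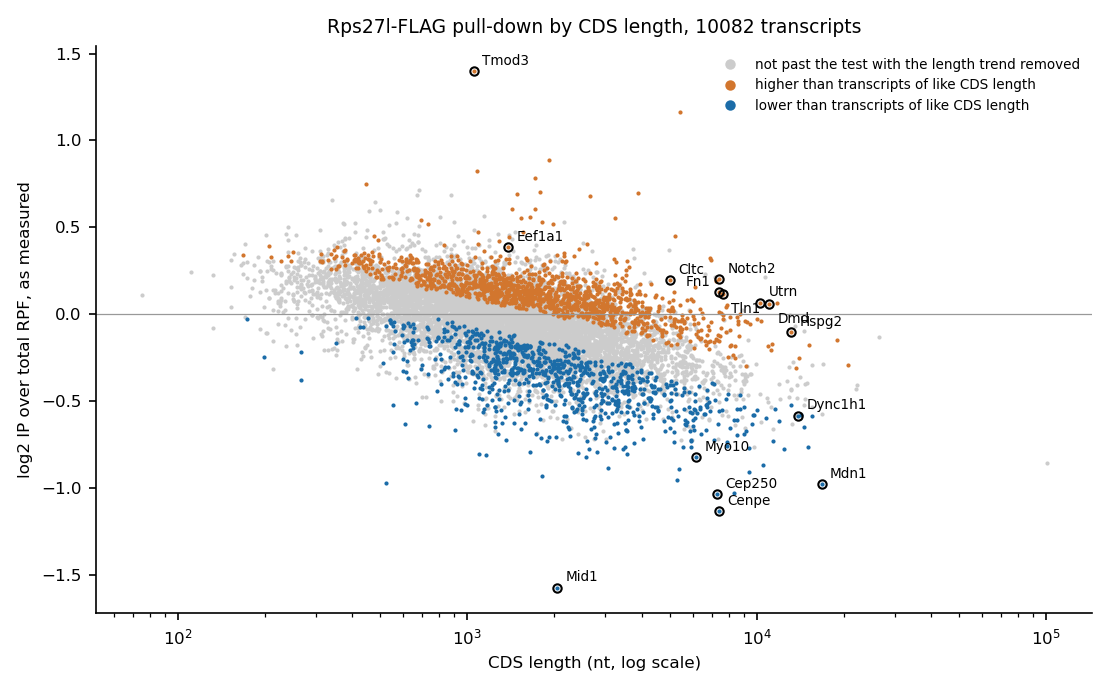
Log2 ratio of IP over total RPFs as measured (vertical axis) against CDS length in nt on a log axis, for 10082 transcripts of the *Rps27l-FLAG* line. Orange and blue points passed the test as higher or lower than transcripts of like CDS length, and grey points did not. *Tmod3* (1.40) and *Mid1* (-1.57) stand farthest out of the labelled transcripts, and long transcripts such as *Notch2* lie far above others of their length such as *Cenpe*.

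Of the 12 highest by the same rule 11 are named here. After *Tmod3* came *Pip5k1c*, a phosphoinositide kinase, at 0.60 and *Gm10324* at 0.60. *Notch2*, a cell surface receptor, had 182, 200 and 178 CPM in the IP RPFs against 150, 171 and 170 in the total RPFs, and was higher within each clone. Its log2 fold change was 0.54 ± 0.04 (SE, adjusted p = 2.7e-21, edgeR). *Dmd* and *Utrn*, which encode dystrophin and its relative utrophin, had fold changes of 0.47 and 0.46 for their length, while their ratios as measured were 0.06 and 0.07, with groups that overlap. *Fn1*, the matrix protein fibronectin, had 2343, 2818 and 3039 CPM in the IP RPFs and 2128, 2595 and 2785 in the total RPFs. It stood at 0.46 ± 0.03 (SE, adjusted p = 2.9e-25) and was higher within each clone, although the groups overlap. *Ank2*, an ankyrin that anchors membrane proteins, stood at 0.49. The others were *Radil*, an effector of Rap GTPases in adhesion, at 0.49, *2410141K09Rik* at 0.48 and *Ppp1r13b*, a partner of p53, at 0.47. *Pip5k1c* did not pass without replicate 1, and *Radil* did not pass without replicate 2.

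The lowest transcript by this rule was *Mid1*. This microtubule-associated ubiquitin ligase had 15.6, 17.5 and 6.64 CPM in the IP RPFs and 44.3, 46.7 and 29.2 in the total RPFs, with no overlap. Its log2 fold change was -1.49 ± 0.10 (SE, adjusted p = 6.2e-22, edgeR). *Cenpe*, the kinetochore motor that helps chromosomes to align, had 168, 169 and 141 CPM in the IP RPFs and 364, 367 and 322 in the total RPFs. It stood at -0.80 ± 0.04 (SE, adjusted p = 1.2e-35), and the 3 clones lay close together. *Cep250*, a protein that holds centrioles together, was at -0.71, and *Tubgcp6*, part of the complex that nucleates microtubules, at -0.69. The others of the 12 lowest were *Vps35l*, of an endosomal recycling complex, at -0.72, *Son* at -0.70, *Tex15*, a germ cell gene, at -0.68 and *Dcaf6*, a substrate receptor of ubiquitin ligases, at -0.64. They also included the kinases *Mast2* at -0.62 and *Csnk1g2* at -0.60, the ubiquitin ligase *Ube3b* at -0.60 and *Piga*, an enzyme of membrane anchor synthesis, at -0.59. *Piga* did not pass without replicate 1. For *Son*, a splicing cofactor, the listed transcript has a CDS of 1362 nt while the longest CDS of the gene has 7431 nt. For *Vps35l* these lengths are 608 and 2973 nt.

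**Figure D4:**
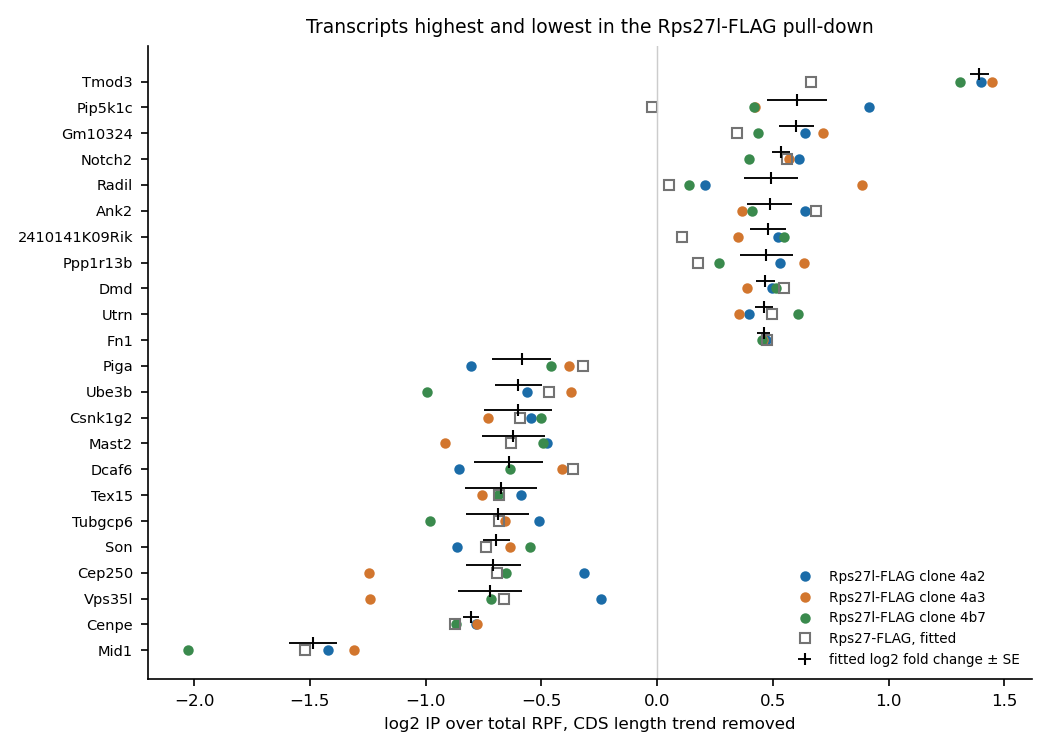
Log2 ratio of IP over total RPFs with the CDS length trend removed (horizontal axis) for 11 of the 12 highest and the 12 lowest transcripts. Filled points are the 3 *Rps27l-FLAG* clones, black marks the fitted log2 fold change with its SE, and open squares the *Rps27-FLAG* fit. The clones of *Fn1* and *Cenpe* lie close together, those of *Vps35l* and *Cep250* far apart, and *Tmod3* is at 1.39 against 0.66 in *Rps27-FLAG*.

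Most tested ribosomal protein and elongation factor transcripts were higher in the *Rps27l-FLAG* pull-down for their CDS length. Over all tested transcripts the median was 0.00, with 13.7% higher and 8.88% lower. Class counts here and below are to be read beside these shares, or beside 9.55% each way with the level trend removed. Those given for the *Rps27-FLAG* pull-down are to be read beside its 1764 higher and 1376 lower of 10082. Of 44 tested transcripts for proteins of the large ribosomal subunit, 29 were higher and 0 lower, with a median of 0.17. Of 30 for the small subunit, 24 were higher and 0 lower, with a median of 0.20. Large-subunit transcripts took 2.995%, 3.127% and 3.104% of the IP RPF counts against 2.585%, 2.488% and 2.657% of the total RPF counts, without overlap. This difference in share includes the length trend, since the median CDS of the class was 456 nt and its median as measured was 0.31. *Rpl6* had 1742, 1877 and 1837 CPM in the IP RPFs and 1483, 1420 and 1517 in the total RPFs, without overlap, and stood at 0.27 ± 0.03 (SE, adjusted p = 4.7e-13, edgeR). The class medians were 0.13, 0.26 and 0.14 for the large and 0.16, 0.27 and 0.16 for the small subunit in replicates 1 to 3, highest in clone 4a3. Without the clone as a block 0 transcripts of either subunit passed, with medians of 0.17 and 0.20. Of 19 elongation factors and other mRNAs with a terminal oligopyrimidine tract, whose translation follows growth signals, 15 were higher and 0 lower, with a median of 0.22. In the *Rps27-FLAG* pull-down 15 of this class were higher and 2 lower. *Eef1a1*, the factor that delivers aminoacyl-tRNAs, had 2262, 2482 and 2629 CPM in the IP RPFs and 1849, 1764 and 2022 in the total RPFs. Its log2 fold change was 0.42 ± 0.03 (SE, adjusted p = 5.7e-22).

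These classes are made of abundant transcripts, and their counts were smaller once the level trend was removed. With that trend also removed, 9 large-subunit transcripts were higher and 1 lower (median 0.05), 11 small-subunit transcripts were higher and 0 lower (median 0.06), and 11 of the elongation factor class were higher and 2 lower (median 0.07). *Eef1a1* then stood at 0.19 and *Rpl6* at 0.06. The same was seen in other classes of housekeeping genes. Of 37 proteasome subunits 17 were higher and 2 lower, and 3 and 6 with the level trend removed. Of 18 glycolytic enzymes 10 were higher, with *Pkm*, pyruvate kinase, at 0.37, and 1 was lower, against 4 and 4 with the level trend removed. Of 13 members of the TRiC chaperonin and prefoldin, which fold actin and tubulin, 6 were higher and 0 lower, against 1 and 3. The part of level in these classes was not tested.

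Spliceosome, histone and adhesion transcripts were among the classes with more members higher than lower on both scales. In the *Rps27-FLAG* pull-down on the length scale these 3 classes had 55 higher and 8 lower, 7 and 0, and 15 and 4. Over all 10082 transcripts that pull-down had 1764 higher and 1376 lower. The histones called higher there, 7 of 38, were near the share of all transcripts. Of 90 spliceosome, hnRNP and SR transcripts 50 were higher and 5 lower (median 0.13), and 27 and 9 with the level trend removed (median 0.06). *Hnrnpk*, an RNA-binding protein, was at 0.33 and *Sf3b1*, which recognizes the branch point, at 0.34, while *Snrnp70*, of the particle that binds the splice donor site, was at -0.30. Of 38 tested histone transcripts, out of 72 in the table, 12 were higher and 0 lower (median 0.15), and 10 and 0 with the level trend removed. *Hist1h1c*, a linker histone, had 496, 588 and 556 CPM in the IP RPFs and 400, 451 and 444 in the total RPFs, without overlap, and a log2 fold change of 0.25 ± 0.03 (SE, adjusted p = 8.2e-12, edgeR). Histone genes share near-identical sequences, so their counts depend on which reads aligned uniquely. Of 43 cadherins, integrins and basement membrane proteins 14 were higher and 2 lower (median 0.12), and 12 and 3 with the level trend removed. *Hspg2*, the proteoglycan perlecan, was at 0.34 and *Agrn*, agrin, at -0.31. The median of this class ranged from 0.04 to 0.14 when 1 clone was left out. Heat shock proteins and cochaperones had 19 of 59 higher and 3 lower (19 and 5 in *Rps27-FLAG*), and 14 and 6 with the level trend removed. The ER translocon, signal peptidase and oligosaccharyltransferase class had 15 of 39 higher and 3 lower (14 and 3 in *Rps27-FLAG*), and 8 and 4 with the level trend removed.

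Chromatin remodelers stood on opposite sides of 0 with and without the length trend. As measured, 4 of 43 were higher and 18 lower, with a median of -0.10. Against transcripts of like length 16 were higher and 1 lower, with a median of 0.07, and with the level trend removed 12 and 4. In the *Rps27-FLAG* pull-down 16 were higher and 4 lower for their length. *Chd4*, an ATPase of the NuRD complex, had 1327, 1443 and 1372 CPM in the IP RPFs and 1276, 1363 and 1268 in the total RPFs, and stood at 0.37 ± 0.03 (SE, adjusted p = 3.7e-20, edgeR). It was higher within each clone by a small margin. *Atrx*, a remodeler of heterochromatin, was at 0.35, and *Bptf*, of the NURF complex, at -0.18 (adjusted p = 2e-05, and 0.10 with DESeq2). Of 50 DEAD- and DEAH-box helicases 21 were higher and 1 lower (25 and 6 in *Rps27-FLAG*), and 11 and 5 with the level trend removed. DNA methylation enzymes had 6 of 10 higher and 0 lower (7 and 0 in *Rps27-FLAG*), and 3 and 0 with the level trend removed. Histone modifying enzymes were more even, and so were Polycomb transcripts once the level trend was removed. Of 66 histone modifying enzymes of the Kmt2, Setd and other families 11 were higher and 10 lower, and 9 and 14 with the level trend removed. Of 30 Polycomb transcripts 7 were higher and 2 lower, and 4 and 4 with the level trend removed. For the respiratory chain and ATP synthase 49 of 79 nuclear transcripts were higher and 8 lower as measured, with a median of 0.18. For their length 18 were higher and 10 lower, with a median of 0.03, and with the level trend removed the balance turned, to 4 and 13.

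The lowest median of the 52 classes was that of the Slc25 carriers, which move metabolites across the inner mitochondrial membrane. Of 30 tested, out of 47 in the table, 3 were higher and 7 lower, with a median of -0.09 and clone medians of -0.10, -0.16 and -0.10. With the level trend removed 1 was higher and 4 lower. DESeq2 gave an adjusted p for 9 of them, of which 2 were higher and 0 lower. *Slc25a39* had 45.5, 46.6 and 37.6 CPM in the IP RPFs against 60.7, 54.6 and 50.3 in the total RPFs, without overlap, and a log2 fold change of -0.36 ± 0.07 (SE, adjusted p = 2e-05, edgeR; 0.056 with DESeq2). The abundant ADP/ATP carrier *Slc25a5* went the other way, at 0.14, and stood at -0.03 with the level trend removed. The *Rps27-FLAG* median of this class was -0.20. Of 24 large HECT and RING ubiquitin ligases, which attach ubiquitin to substrates, 2 were higher and 7 lower (median -0.06), and 1 and 10 with the level trend removed (median -0.10). *Ube3c* was at -0.35 and *Cul7* at -0.24, while *Trip12* was at 0.23. The ligases took 0.790%, 0.790% and 0.794% of the IP RPF counts against 0.948%, 0.945% and 0.955% of the total RPF counts, a difference that includes the length trend.

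Several classes split in both directions. Of 77 ribosome biogenesis factors 24 were higher and 19 lower. *Ncl*, nucleolin, was at 0.40, with 3299, 3706 and 3756 CPM in the IP RPFs and 2808, 2854 and 3016 in the total RPFs. *Mdn1*, the giant ATPase of large-subunit assembly, was at -0.49, with 432, 463 and 430 against 848, 918 and 851 CPM. *Heatr1*, which acts in rRNA transcription and processing, was at -0.38. With the level trend removed 14 factors of this class were higher and 30 lower. Myosin heavy chains and spectrin repeat proteins were counted together with other large proteins of the cytoskeleton, such as talin and filamin. Of these 39 transcripts 9 were higher and 11 lower, and 10 and 9 with the level trend removed. *Tln1*, talin, was at 0.45 and *Flna*, filamin, at 0.40, while *Myo10* was at -0.53, *Myo5a* at -0.49 and *Myh10* at -0.48. *Myo10* had 172, 197 and 222 CPM in the IP RPFs and 301, 348 and 399 in the total RPFs. All of these are large proteins of the cytoskeleton, found at both ends of the range for their length.

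Genes of mitosis and genome upkeep, nuclear pore proteins and aminoacyl-tRNA synthetases also had called members in both directions. The centrosome class leaned to the lower side, with 9.68% higher and 19.4% lower against 13.7% and 8.88% of all transcripts. Of 49 kinetochore and centromere transcripts 9 were higher and 7 lower, and 5 and 9 with the level trend removed, with *Cenpe* and *Sgo2a*, a guardian of centromeric cohesion at -0.58, the lowest. DESeq2 called 3 higher and 6 lower. Of 62 centrosome transcripts 6 were higher and 12 lower, and 5 and 11 with the level trend removed, with *Ckap5*, a microtubule polymerase, at 0.45 and *Cep250* at -0.71. Of 26 cohesin and condensin transcripts 8 were higher and 10 lower, and 3 and 13 with the level trend removed. Of 56 DNA damage kinases and repair factors 11 were higher and 13 lower, and 7 and 16 with the level trend removed (5 and 4 with DESeq2), with *Mdc1*, a mediator of the damage response, at 0.34 and *Fancm*, which acts at stalled replication forks, at -0.37. *Fancm* did not pass without replicate 2. Of 29 nuclear pore transcripts 11 were higher and 7 lower (median 0.03), but 4 and 10 with the level trend removed (median -0.03), with *Nup214* at 0.25 and *Nup205* at -0.35. Of 40 aminoacyl-tRNA synthetases 13 were higher and 8 lower (median 0.02), but 2 and 12 with the level trend removed (median -0.04). The cytosolic *Aars* was at 0.30 and the mitochondrial *Iars2* at -0.35.

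**Figure D5:**
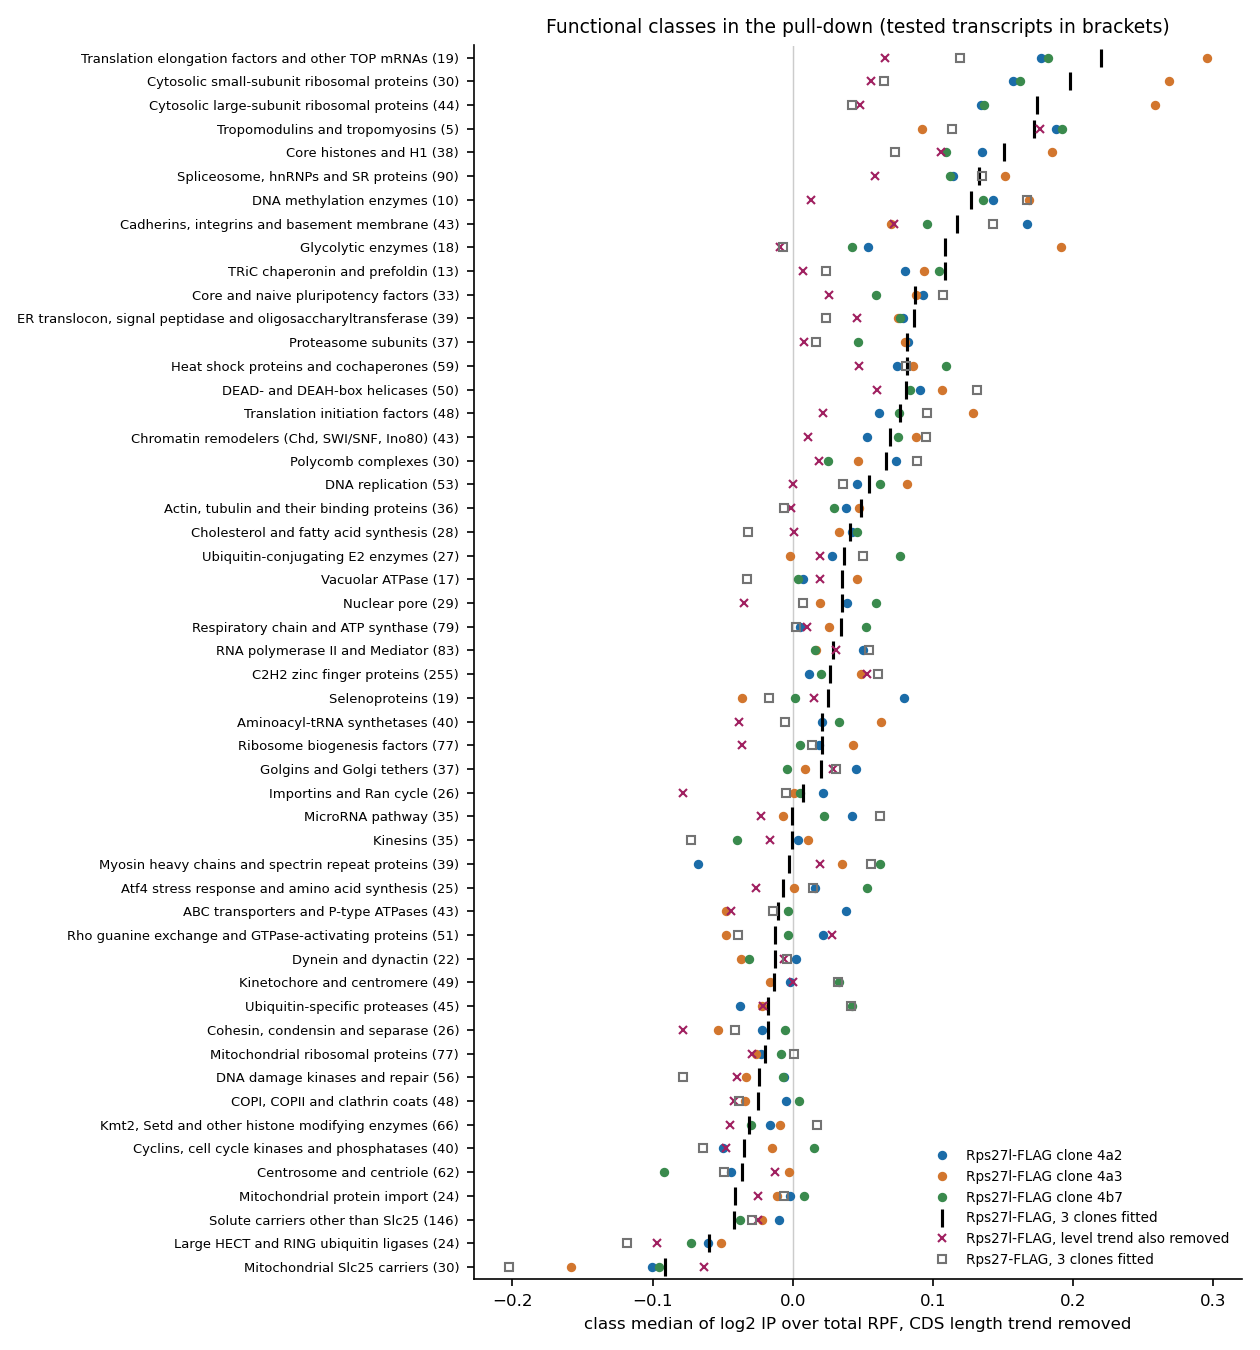
Median log2 ratio of IP over total RPFs with the CDS length trend removed (horizontal axis) for each functional class, with the number of tested transcripts in brackets. Filled points are the 3 *Rps27l-FLAG* clones, black bars the fit, crosses the fit with the level trend also removed, and open squares the *Rps27-FLAG* fit. The classes run from 0.22 for elongation factors and other TOP mRNAs to -0.09 for the Slc25 carriers, and clone 4a3 lies to the right of the other clones in the ribosomal protein classes.

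Among the other classes, 15 of 33 pluripotency factors were higher and 2 lower, and 5 and 4 with the level trend removed. *Esrrb*, a nuclear receptor of naive pluripotency, was at 0.23. Of 48 translation initiation factors 20 were higher and 4 lower, with *Eif4b*, a helper of the cap-binding helicase, at 0.35, and 9 and 5 with the level trend removed. Of 53 DNA replication transcripts 18 were higher and 4 lower, against 10 and 11. Of 77 mitochondrial ribosomal proteins, which are made in the cytosol, 3 were higher and 9 lower on either scale. On the length scale these are 3.90% and 11.7%, the latter near the 8.88% of all transcripts. Of 5 tropomodulins and tropomyosins tested, out of 11 in the table, 3 were higher and 0 lower on either scale, *Tmod3* among them. In the 255 tested C2H2 zinc finger transcripts, out of 409, 16 were higher and 13 lower, and 16 and 10 with the level trend removed. On the length scale these are 6.27% and 5.10%, below the 13.7% and 8.88% of all. Their median in the total RPFs was 12.8 CPM, against 33.6 CPM for all.

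Hydrophobic stretches, a mark of membrane insertion, were counted in each protein to describe what members share. Of 6928 transcripts whose protein has no window of high mean hydropathy, 15.4% were higher and 8.42% lower, with a median of 0.01. Of 491 with at least 5 such windows, 8.35% were higher and 9.16% lower, with a median of -0.02. The median level of the first group was 36.4 CPM and that of the second 22.6 CPM, and the part of level in this was not tested.

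The effects of both pull-downs were set against each other in 1 fit over their 12 libraries, and differences had also to exceed 0.25 on the log2 scale. With the length trend removed, 19 of 10082 transcripts (0.188%) were relatively higher in the *Rps27l-FLAG* pull-down and 10 (0.0992%) lower. With no limit 103 (1.02%) were higher and 29 (0.288%) lower. Without the clone as a block 0 passed, and 108 had an unadjusted p under 0.05. Without replicate 3 of *Rps27-FLAG* the count with the limit was 19. *Tmod3* was higher by 0.73 on the log2 scale (adjusted p = 3.2e-22, edgeR), with 1.39 in *Rps27l-FLAG* and 0.66 in *Rps27-FLAG*. The paper left this transcript out of its own comparison as a likely artifact. *Golgb1*, a Golgi tether, was nearer to 0 in *Rps27l-FLAG* (-0.20) than in *Rps27-FLAG* (-0.54). *Recql*, a DNA helicase named here after its values were seen, was on opposite sides of 0, at 0.20 and -0.33. In the other direction *Tnrc6c*, of the microRNA pathway and likewise named after its values were seen, was at 0.13 in *Rps27l-FLAG* and 0.54 in *Rps27-FLAG*.

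By class, the difference reached the limit for 0 of 44 large-subunit and 0 of 30 small-subunit ribosomal protein transcripts. With no limit, 8 and 4 of them were relatively higher in *Rps27l-FLAG* and 0 lower, with class medians of 0.17 against 0.04 and of 0.20 against 0.07 in *Rps27-FLAG*. These counts varied with the clone left out. Without replicate 1, 2 or 3 of *Rps27l-FLAG* 8, 1 and 4 large-subunit transcripts passed. Without replicate 1, 2 or 3 of *Rps27-FLAG* 2, 19 and 1 passed. The large-subunit median of the difference ran from 0.09 to 0.16 in these fits. For the small subunit the count ran from 0 to 11. *Rps3a1* differed by 0.16 (adjusted p = 0.023, edgeR) and *Npm1*, nucleophosmin, by 0.18 (adjusted p = 0.0073). Spliceosome transcripts, with medians of 0.13 in both pull-downs, had 0 of 90 past the test of the difference in either direction.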

How the data were processed

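Ribosome-protected fragments of mouse embryonic stem cells were sequenced. The authors removed adapters (cutadapt 2.4) and rRNA, tRNA and snRNA reads, aligned the rest with Bowtie2 2.3.4.3 to GRCm38 GENCODE canonical transcripts, collapsed duplicates by unique molecular identifier (UMI-tools 1.0.1), and deposited whole-number counts of ribosome A sites over each CDS without its ends. GENCODE M21 held 21713 of the 21727 transcripts and gave a CDS length for 19243.

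Counts were analysed in R 4.3.3 with edgeR 4.0.16: CPM over 2 in at least 14 of 15 libraries, TMM separately for IP and total RPF libraries, quasi-likelihood test, Benjamini-Hochberg adjustment, threshold 0.05, clone as a block. The length trend was a loess with span 0.5 on log2 CDS length. IP and total RPFs of a replicate number came from 1 clone, and their deviations from group means correlated (r = 0.577, 0.538 and 0.713; other pairs -0.49 to 0.07). Subtracting a group mean of 3 replicates itself pulls the other pairs down, so they are not an independent reference. Tested on simulated data, 75% of 200 transcripts changed by 0.5 (log2) were recovered as measured and 78.5% with the length trend removed, with 3 and 11 false calls. For the difference between pull-downs 63.5% and 63% were recovered, with 8 and 4 false calls. All other transcripts were simulated without a change. Called changes in the data were smaller (median absolute log2 0.25 as measured, 0.20 with the length trend removed), and recovery at that size was not simulated.

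Named were *Rps27l*, *Rps27*, *Tmod3*, the 12 highest and 12 lowest called transcripts with ratios of 1 sign in 3 clones and a mean of at least 10 CPM, 5 each way as measured, and the 3 highest and 3 lowest called members of each class. A few transcripts that these rules name are not reported here. The members and lists were chosen with earlier results of these data known. No list was tested. Hydrophobic windows were 19 residues with a mean Kyte-Doolittle hydropathy of at least 1.6. Alternatives were DESeq2 1.42.0, voom with limma 3.58.1, other scaling, filters and spans, GC content, no block, and leaving out each clone. A level trend and the longest CDS of each gene were added after seeing the data.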

Additional observations from a re-analysis of the deposited data

Results flagged for a closer look

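The effects of the *Rps27l-FLAG* and *Rps27-FLAG* pull-downs differed by the test of the difference itself (edgeR, adjusted p under 0.05 and an absolute log2 difference over 0.25) for these named transcripts. Differences are *Rps27l-FLAG* minus *Rps27-FLAG* on the log2 scale.

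As measured, the difference was 1.26 for *Ctcfl*, 1.00 for *Nrk*, 0.71 for *Tmod3*, 0.53 for *Recql*, 0.45 for *Golgb1*, 0.34 for *Eml4* and 0.34 for *Mdn1*. It was 0.29 for *Prkdc*, 0.29 for *Espl1*, 0.28 for *Cul7*, 0.28 for *Dync1h1*, 0.27 for *Aldh18a1*, 0.26 for *Nup205* and 0.25 for *Herc2*. It was -0.34 for *Tnrc6c*.

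With the CDS length trend removed, it was 1.26 for *Ctcfl*, 0.95 for *Nrk*, 0.73 for *Tmod3*, 0.52 for *Recql*, 0.35 for *Golgb1*, 0.32 for *Eml4* and 0.25 for *Aldh18a1*. It was -0.41 for *Tnrc6c*. The 2 largest differences passed narrowly, with adjusted p of 0.0357 for *Ctcfl* and 0.0363 for *Nrk* (edgeR). The others had 0.00204 or less. *Ctcfl* had 4.07, 9.45 and 2.04 CPM in the *Rps27l-FLAG* IP RPFs and 3.64, 2.47 and 2.37 in the total RPFs, so that its value rested on replicate 2.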

How the results depend on the processing

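As measured, 3128 transcripts passed: 1525 with an absolute log2 fold change over 0.25, 1148 with DESeq2 (adjusted p for 5392), 313 with no replicate block, and 2394 to 2511 when 1 clone was left out. With the length trend removed, 2278 passed: 741 over 0.25, 939 with DESeq2 (813 higher and 126 lower, adjusted p for 4023), 6 with no replicate block (4 higher and 2 lower), and 1582 to 1791 when 1 clone was left out. For the difference between pull-downs as measured, 58 passed: 151 with no limit on the difference, 11 with DESeq2, 0 without the block (142 at an unadjusted p under 0.05), and 45 to 61 when 1 clone was left out. For that difference with the length trend removed, 29 passed: 132 with no limit, 2 with DESeq2, 16 with no filter on low counts, 0 without the block, and 19 to 35 when 1 clone was left out. The mean log2 share ratio of the mitochondrially encoded transcripts was -3.24 ± 0.35 (SD, n = 3), and -3.39 to -3.05 when 1 clone was left out. Of 129 named transcripts called with the length trend removed, 105 stayed called in every alternative that gave a value other than the fit without the block. The causes were not tested.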
